A study of Homo sapiens with 6 samples.

Results

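The tubulin genes were examined in brachyury-knockdown MDA-MB-231 cells (shBry) and in control MDA-MB-231 cells (shNC), which carry a control hairpin in place of the one against brachyury. MDA-MB-231 is a line grown from a human breast cancer, and neither the sequence of the hairpin nor the number of separate cultures was given in the sources used here, so p-values measure only the spread between the libraries. There were 3 RNA-seq libraries per group. The 10 genes were chosen by symbol from the 54259 gene symbols of the count table: the alpha-tubulin genes TUBA1A, TUBA1B, TUBA1C and TUBA4A, the beta-tubulin genes TUBB2A, TUBB2B, TUBB3, TUBB4B and TUBB6, and the gamma-tubulin gene TUBG1. TUBB, a further beta-tubulin gene that lies in the MHC region of chromosome 6, is not among them, and its row was at 0 counts in all 6 libraries.

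Microtubules are hollow polymers of alpha-tubulin and beta-tubulin heterodimers. They form the mitotic spindle and the tracks of intracellular transport, and gamma-tubulin in a ring complex nucleates them. Humans have several genes for each subunit, called isotypes, whose proteins differ mostly in an acidic tail at the C-terminus that sticks out from the polymer and is modified by enzymes. Cells hold the level of soluble tubulin by autoregulation: when free dimers accumulate, TTC5 recognizes the first residues of a nascent tubulin chain (methionine, arginine and glutamate, then isoleucine in beta-tubulin or cysteine in alpha-tubulin) and the mRNA is degraded.

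Libraries held between 19319411 and 22985371 counts. The test between groups was the quasi-likelihood test in edgeR after TMM scaling, and a gene was called at a Benjamini-Hochberg adjusted p below 0.05 over all 15277 tested genes and a fold change above 1.5. Brachyury, listed as T, was at 0 counts in all 6 libraries, so the targeted gene gave no check of the labels or the knockdown. The paper states that this line constitutively overexpresses brachyury, which the 0 counts in shNC do not show. The reason was not tested. VIM, CD44, AXL and CAV1, which MDA-MB-231 cells express, summed to between 4929 and 5582 CPM (the usual per-library scaling of counts, here with TMM-scaled library sizes), and ESR1 and PGR had at most 1 count in any library. With CDH1 and EPCAM they summed to between 3.66 and 5.01 CPM in shBry and between 1.10 and 1.94 in shNC. EPCAM held nearly all of these counts and was called higher in shBry (log2 fold change 1.47, edgeR adjusted p = 0.00034). CAV1 was called lower in shBry (log2 fold change -1.11, edgeR adjusted p = 1.4e-07), while VIM, CD44 and AXL were not called. The design text of the series calls the RNA pericardial. Of 5 mesothelial markers, UPK3B had at most 5 counts and WT1 at most 7, and MSLN carried most of the sum, which was between 51.4 and 57.7 CPM in shBry and between 40.2 and 42.1 in shNC. LRRN4 was called higher in shBry (log2 fold change 0.76). CALB2 was called lower (log2 fold change -2.52), with 222 counts in shNC replicate 3 and between 14 and 30 in the other libraries. The part of these differences in the results was not tested. In such bulk libraries, fewer cells of a kind and less RNA per cell cannot be told apart. The leukocyte markers PTPRC and TYROBP were at 0 counts, and LYZ had at most 2 and CD53 at most 3 in any library.

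The 10 genes differ in sequence in ways that bear on their counts. Positions are those of GENCODE 29 on GRCh38. The first 24 coding bases are shown for 5 members, with the first 4 codons in capitals. In the alpha-tubulin and beta-tubulin genes these codons encode the residues that the autoregulation recognizes.
TUBA1B: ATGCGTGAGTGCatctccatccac
TUBA4A: ATGCGTGAATGCatctcagtccac
TUBB3: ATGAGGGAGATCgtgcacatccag
TUBB4B: ATGAGGGAAATCgtgcacttgcag
TUBG1: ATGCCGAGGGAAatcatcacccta
The start codons lie at chr12:49131298-49131300 for TUBA1B, chr2:219253856-219253858 for TUBA4A, chr16:89923402-89923404 for TUBB3, chr9:137241361-137241363 for TUBB4B and chr17:42609738-42609740 for TUBG1. In TUBA1B and TUBA4A the start codon lies in exon 1, and codon 4 lies in exon 2. TUBA1A, TUBA1B and TUBA1C had 0 differing bases among these 24. The alpha-tubulin and beta-tubulin genes have an arginine codon and a glutamate codon after the start codon, though not always with the same bases. TUBG1 has CCG in second place.

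The last 60 coding bases, 20 codons with the stop codon, are shown for TUBA4A and the beta-tubulin genes, since many isotypes differ there. Not all do, as TUBA1A and TUBA1B had 0 differing bases in this stretch. The last codon before the stop is in capitals.
TUBA4A: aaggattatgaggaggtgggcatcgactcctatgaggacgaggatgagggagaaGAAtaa
TUBB2A: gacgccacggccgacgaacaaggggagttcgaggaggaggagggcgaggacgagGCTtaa
TUBB2B: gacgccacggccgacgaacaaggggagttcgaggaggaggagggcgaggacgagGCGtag
TUBB3: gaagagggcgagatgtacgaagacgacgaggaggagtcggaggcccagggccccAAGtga
TUBB4B: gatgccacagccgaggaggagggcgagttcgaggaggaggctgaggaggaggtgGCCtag
TUBB6: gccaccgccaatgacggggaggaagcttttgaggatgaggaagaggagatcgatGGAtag
They lie in the last coding exon, exon 4, at chr2:219250352-219250411 (minus strand) for TUBA4A, chr6:3153863-3153922 (minus) for TUBB2A and chr6:3224751-3224810 (minus) for TUBB2B. Those of TUBB3 are at chr16:89935745-89935804, those of TUBB4B at chr9:137243497-137243556 and those of TUBB6 at chr18:12326071-12326130, all on the plus strand. The last codon of TUBA4A is a glutamate codon. TUBB2B differed from TUBB2A at 2 of 60 bases. TUBB3, which differed from TUBB4B at 35 of 60 bases, ends with a lysine codon.

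Over the whole coding sequence TUBA1A and TUBA1B were 97.2% identical, TUBA1B and TUBA1C 96.8%, and TUBB2A and TUBB2B 98.1%. The most distant beta-tubulin pair, TUBB4B and TUBB6, was 83.4% identical. Reads that fit several genes equally could be lost or shared in the counting. Of all stretches of 50 bases in TUBB2A transcripts, 58.7% are also found in other genes, and the figure was 47.9% for TUBB2B, 25.6% for TUBA1B, 22.1% for TUBA1A, 19.9% for TUBG1 and 15.6% for TUBA1C. It was 7.45% for TUBB4B, 2.64% for TUBA4A and 0.446% for TUBB6. With stretches of 150 bases it was 41.4% for TUBB2A, 36.1% for TUBB2B and 27.5% for TUBB3 but at most 6.43% for the alpha-tubulin genes. The counts of TUBB2A and TUBB2B are therefore the least certain of the set. TUBB3 shares 33.4% of its 50-base stretches with AC092143.1, a GENCODE gene that runs through it, and AC011603.2 overlaps 36.6% of the exon bases of TUBA1B. Neither name is a row of the count table. AFG3L2 overlaps 20.3% of the exon bases of TUBB6, and TUBA1C overlaps 14.3% of those of TUBA1A.

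All 10 genes passed the expression filter. Of these, 3 fell in shBry, TUBB4B, TUBB6 and TUBA1B, none was called higher and 7 were not called. Over all tested genes 32.4% were called, 17.1% higher and 15.2% lower, so that the share of called tubulin genes was near that of all genes. The median log2 fold change (shBry relative to shNC) of the 10 genes was -0.11, against 0.03 for all tested genes. The 3 genes that fell were among the 4 tubulin genes with the highest level per length in shNC. For each of the 7 genes that were not called, the 95% interval of the fold change lay inside the limit of 1.5 in both directions. Of the 3 called genes, only TUBB4B had an interval wholly past the limit.

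**Figure D1:**
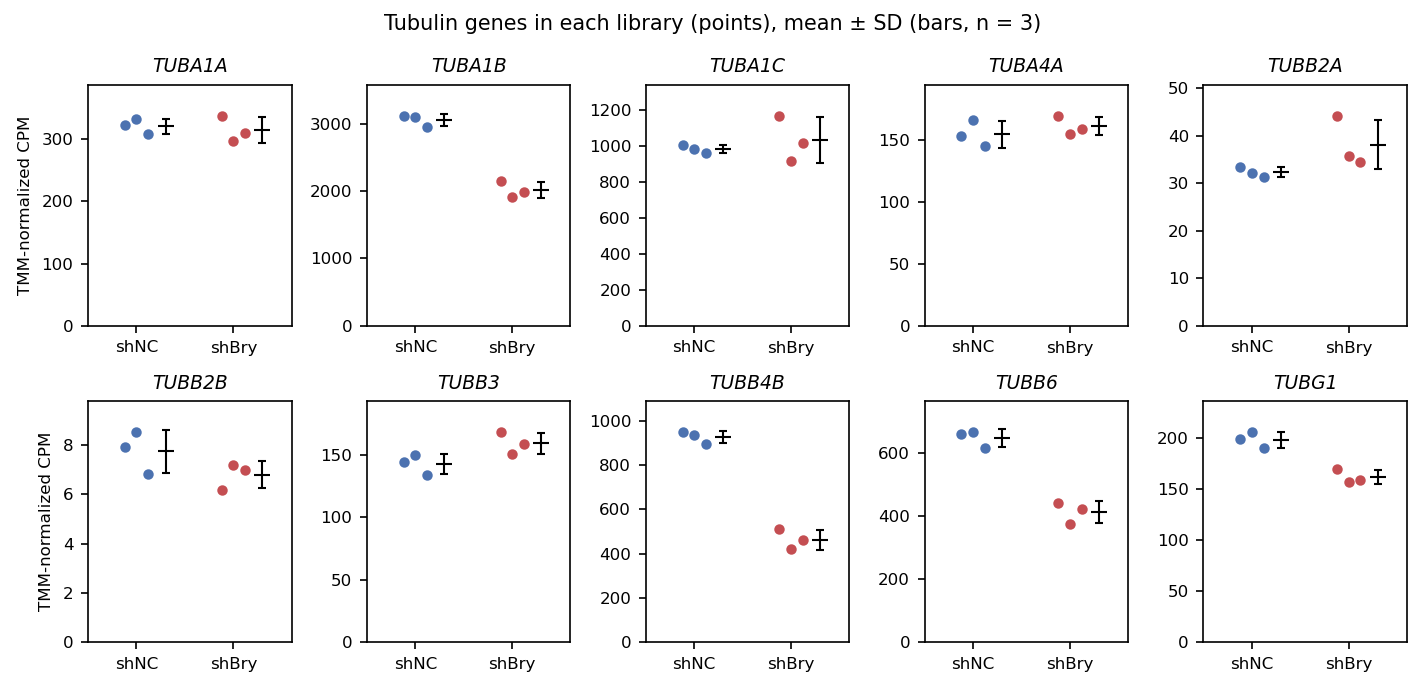
TMM-normalized CPM of the 10 tubulin genes in each library (points), with the mean and SD of each group (black, n = 3) and each vertical axis starting at 0. The groups lie apart in TUBA1B, TUBB4B, TUBB6 and TUBG1, where shBry is lower, and by less in TUBB2A and TUBB3, where shBry is higher.

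Among the 5 beta-tubulin genes of the set, TUBB4B had the largest fold change. TUBB4B (ENSG00000188229.5, chr9:137241213-137243707) is a broadly expressed isotype found in most dividing cells and in cilia. It had 947, 935 and 898 CPM in shNC and 511, 421 and 461 CPM in shBry (replicates 1, 2 and 3). The lowest shNC library was well above the highest shBry library. The mean went from 927 ± 25.9 CPM (SD, n = 3) to 464 ± 45.1, which was 50.1% of the control mean, with a log2 fold change of -0.998 (SE 0.08, edgeR adjusted p = 3e-07). With each library left out in turn the log2 fold change stayed between -1.08 and -0.95.
TUBB6 (ENSG00000176014.12, chr18:12307669-12344320), a divergent isotype of non-neural tissues, had 662, 666 and 617 CPM in shNC and 443, 375 and 422 CPM in shBry. The groups did not overlap. The mean was 648 ± 27.6 CPM in shNC and 413 ± 35 in shBry. The log2 fold change was -0.65 (SE 0.08, 95% interval -0.83 to -0.47, edgeR adjusted p = 1.6e-05), with an interval that crossed the limit. Leaving out single libraries gave values between -0.71 and -0.60.
TUBB3 (ENSG00000258947.6, chr16:89921392-89938761) encodes the isotype best known from neurons, which many carcinomas also express. It had 144, 150.3 and 134.3 CPM in shNC and 168, 151 and 159 CPM in shBry. The groups did not overlap, by a margin of less than 1 CPM between shNC replicate 2 and shBry replicate 2. The log2 fold change of 0.16 (SE 0.08, 95% interval -0.02 to 0.33, edgeR adjusted p = 0.12) did not pass the test.
TUBB2A (ENSG00000137267.5, chr6:3153669-3157526) and TUBB2B (ENSG00000137285.9, chr6:3224261-3231730) are neighbours on chromosome 6 and near-copies, both abundant in brain. TUBB2A had 33.5, 32.2 and 31.4 CPM in shNC and 44.1, 35.7 and 34.5 CPM in shBry. All shBry values were higher, shBry replicate 1 by most, and the log2 fold change was 0.23 (95% interval -0.00 to 0.47, edgeR adjusted p = 0.091). TUBB2B was scarce, with 7.93, 8.51 and 6.81 CPM in shNC and 6.19, 7.21 and 7.005 CPM in shBry. Its groups overlapped, and the log2 fold change was -0.19 (95% interval -0.52 to 0.15, edgeR adjusted p = 0.34).

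**Figure D2:**
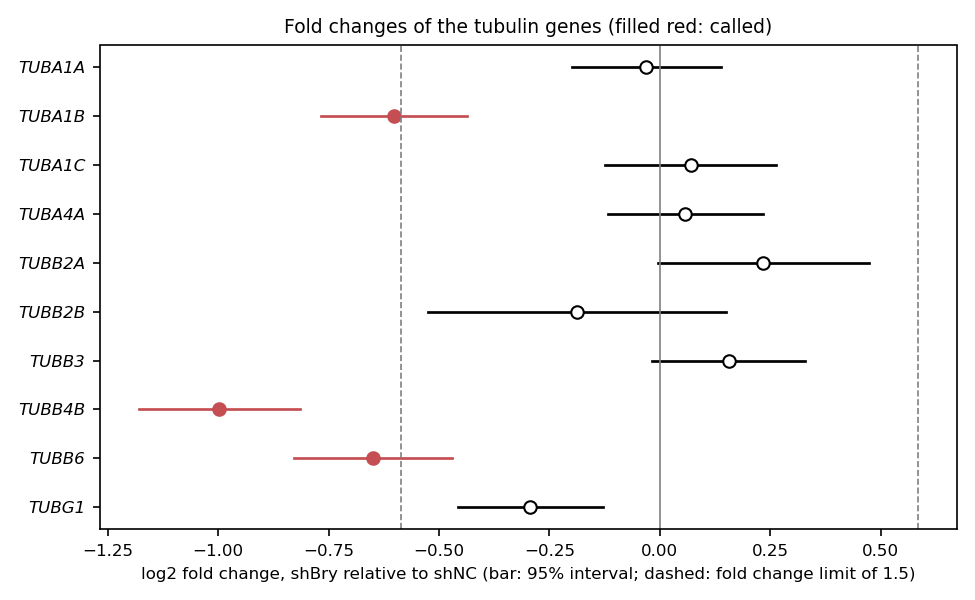
Log2 fold change of each tubulin gene (shBry relative to shNC) with its 95% interval, filled red where the gene was called, with dashed lines at the fold change limit of 1.5. The points of TUBB4B, TUBB6 and TUBA1B lie beyond the lower line, but only the interval of TUBB4B lies wholly beyond it. The intervals of the other 7 genes stay between the lines.

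Among the alpha-tubulin genes, TUBA1B fell and the other 3 were not called. TUBA1A, TUBA1B and TUBA1C lie close together on chromosome 12. TUBA1B (ENSG00000123416.15, chr12:49127782-49131397), the most abundant alpha-tubulin gene of most cultured cells, had 3113, 3097 and 2954 CPM in shNC and 2143, 1907 and 1988 CPM in shBry. Every shBry library was far below every shNC library. The log2 fold change was -0.60 (SE 0.08, 95% interval -0.77 to -0.44, edgeR adjusted p = 1.7e-05), a fold of 1.52, just past the limit. Without shBry replicate 2 it was -0.58 (edgeR adjusted p = 1.6e-06), just under the limit, and then 2 of the 10 genes were called.
TUBA1C (ENSG00000167553.15, chr12:49188736-49274603), a close relative of TUBA1B that encodes a similar protein, had 1001, 983 and 959 CPM in shNC and 1164, 912 and 1013 CPM in shBry. Its shBry values lay on both sides of the shNC values. The log2 fold change was 0.07 (95% interval -0.12 to 0.26, edgeR adjusted p = 0.54), and it changed sign to -0.03 without shBry replicate 1.
TUBA1A (ENSG00000167552.13, chr12:49184796-49189324), the main alpha-tubulin of developing neurons, had 322, 332 and 308 CPM in shNC and 337, 296 and 309 CPM in shBry. The groups overlapped fully, with a log2 fold change of -0.03 (95% interval -0.20 to 0.14, edgeR adjusted p = 0.77).
TUBA4A (ENSG00000127824.13, chr2:219249711-219278170), whose coding sequence ends with a glutamate codon, had 153, 166 and 145 CPM in shNC and 169, 155 and 159 CPM in shBry. The groups overlapped, the log2 fold change was 0.06 (95% interval -0.12 to 0.23, edgeR adjusted p = 0.57), and without shNC replicate 3 it was -0.01.
TUBG1 (ENSG00000131462.7, chr17:42609676-42615234) encodes the gamma-tubulin of the ring complex. It had 199, 205 and 189.9 CPM in shNC and 169.5, 156 and 159 CPM in shBry. The groups did not overlap, and the log2 fold change of -0.29 (SE 0.08, edgeR adjusted p = 0.0053) passed the threshold on p but not the fold change limit. With it, 4 of the 10 genes had an adjusted p below the threshold, against 53.3% of all tested genes. Groups that did not overlap were seen in 6 of the 10 genes, against 59.5% of all tested genes.

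Levels of different genes were compared as CPM per kilobase of the longest coding transcript. In shNC the order was TUBA1B (1878 ± 53.8, SD, n = 3), TUBB4B (566 ± 15.8), TUBA1C (327 ± 7), TUBB6 (314 ± 13.4), TUBA1A (167 ± 6.26), TUBG1 (123 ± 4.75), TUBB3 (72.3 ± 4.1), TUBA4A (61.9 ± 4.33), TUBB2A (20.3 ± 0.66) and TUBB2B (3.84 ± 0.427). TUBA1C and TUBB6 overlapped in this order, and no other neighbours did. In shBry, TUBA1B was at 1237 ± 73.7, TUBA1C at 343 ± 42.2, TUBB4B at 284 ± 27.5 and TUBB6 at 200.3 ± 16.9. TUBB4B thus changed places with TUBA1C, with which it overlapped in shBry, and TUBA1C stood apart from TUBB6. With the exon union as the length all values were lower, and TUBA4A stood before TUBB3.

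**Figure D3:**
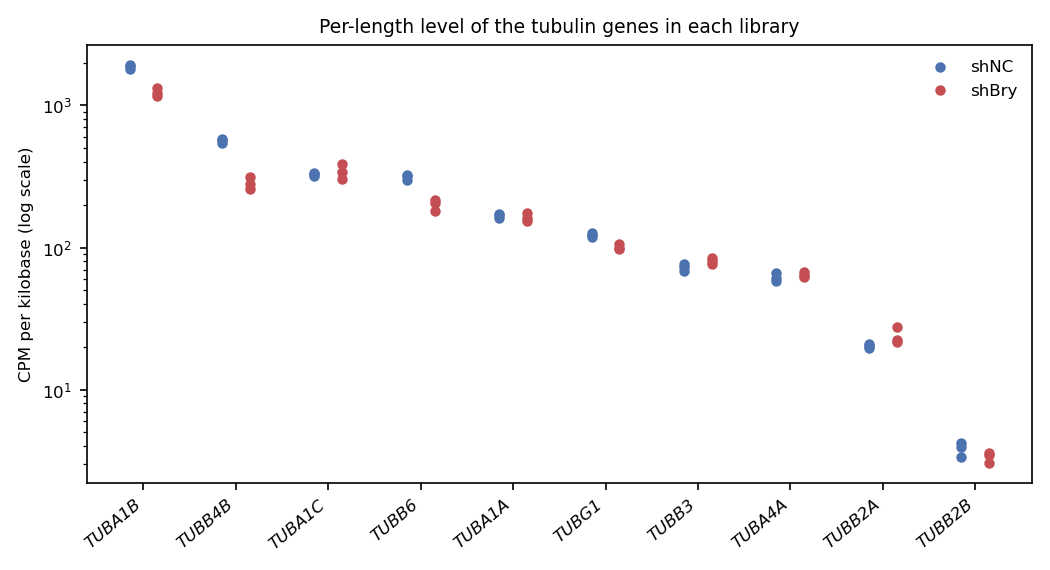
Level of each tubulin gene per library as CPM per kilobase of the longest coding transcript (log scale), in the order of the shNC means. TUBA1B is highest in both groups, TUBB2B is lowest, and shBry lies below shNC in TUBA1B, TUBB4B, TUBB6 and TUBG1.

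Summed over the family, alpha-tubulin counts and beta-tubulin counts were both lower in shBry. The falls lay in the called genes, TUBA1B for alpha-tubulin and TUBB4B and TUBB6 for beta-tubulin, so the sums are not separate results. The mean alpha-tubulin sum differed by -994 CPM, while TUBA1B alone went from 3055 CPM in shNC to 2013 in shBry. The 4 alpha-tubulin genes together had 4589, 4579 and 4366 CPM in shNC and 3813, 3270 and 3469 CPM in shBry. The mean in shBry was 78% of that in shNC. The 5 beta-tubulin genes, without TUBB, had 1795, 1793 and 1687 CPM in shNC and 1172, 989 and 1084 CPM in shBry, and the mean in shBry was 61.5% of that in shNC. Neither sum overlapped between groups (two-sided exact permutation test, p = 0.1 for each, the smallest that 3 against 3 libraries can give). The ratio of alpha-tubulin to beta-tubulin counts was 2.57 ± 0.0192 in shNC and 3.25 ± 0.0527 in shBry (exact permutation p = 0.1). This ratio and the shares below also leave out TUBB, and they were taken from counts without correction for length. All 10 genes together took 0.65% of all counts in shNC and 0.472% in shBry.
The make-up of the sums, which does not depend on library scaling but restates the same gene changes, differed too. TUBB4B made up 52.7% ± 0.527 of the beta-tubulin counts in shNC and 42.9% ± 0.604 in shBry. TUBB3 made up 8.04%, 8.39% and 7.96% in the shNC libraries and 14.3%, 15.3% and 14.7% in the shBry libraries. Its share was therefore higher in every shBry library, by 6.63 percentage points on average, although its own level did not pass the test. TUBB2A went from 1.84% ± 0.0376 to 3.52% ± 0.301, TUBB2B from 0.44% ± 0.0355 to 0.634% ± 0.101, and TUBB6 from 36.9% ± 0.308 to 38.2% ± 0.642. Of the alpha-tubulin counts, TUBA1B made up 67.7% ± 0.11 in shNC and 57.3% ± 1.06 in shBry. TUBA1C made up 21.8% ± 0.249 and 29.2% ± 1.31, TUBA1A 7.11% ± 0.127 and 8.94% ± 0.112, and TUBA4A 3.43% ± 0.176 and 4.59% ± 0.148. None of these shares overlapped between groups, and each had an exact permutation p of 0.1 before adjustment. Shares within a sum are bound to each other, so these are not independent results.

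**Figure D4:**
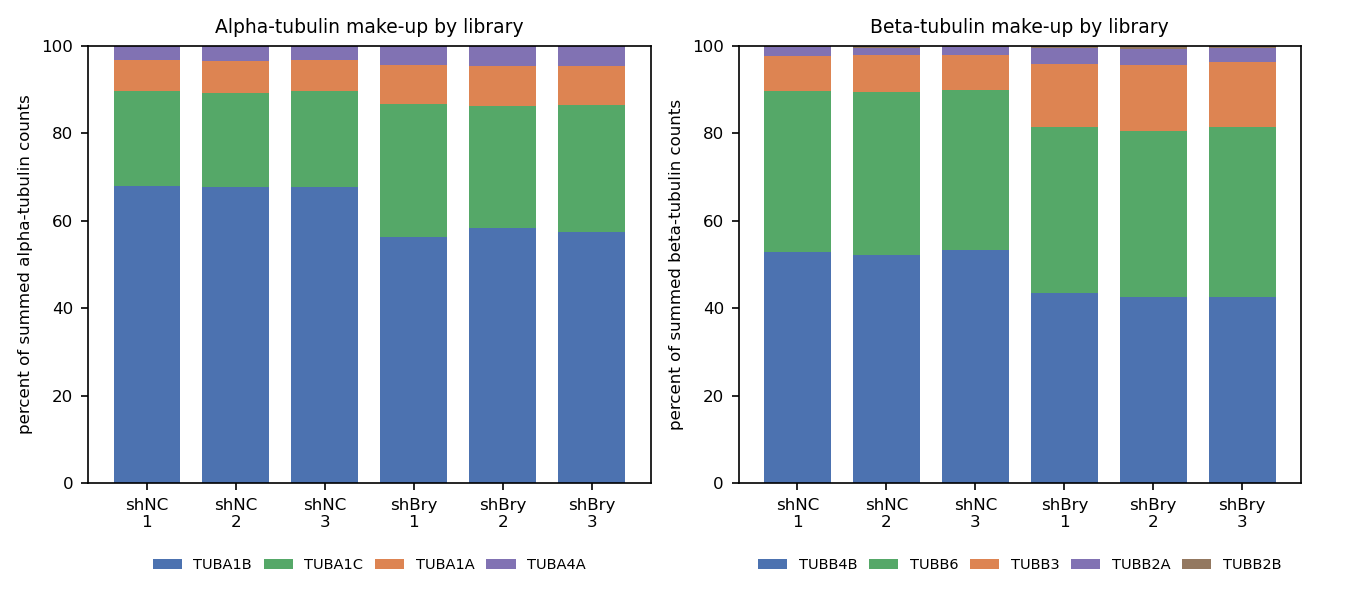
Percent of the summed alpha-tubulin counts (left) and of the summed beta-tubulin counts (right) held by each gene in each library. The bottom blocks, TUBA1B and TUBB4B, are smaller in all 3 shBry libraries, at 57.3% and 42.9% on average against 67.7% and 52.7% in shNC.

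Promoter sequences were examined for the 3 genes that fell and, for contrast, for TUBA1A. All 10 genes matched the RefSeq table of promoters (GRCh38.p14). The 250 bases before the start nearest to the start codon are shown, with CCAAT (the NF-Y box, on either strand) and TTTGAA or TTCGAA (the core of the cell cycle homology region, on either strand) in capitals.
TUBB4B: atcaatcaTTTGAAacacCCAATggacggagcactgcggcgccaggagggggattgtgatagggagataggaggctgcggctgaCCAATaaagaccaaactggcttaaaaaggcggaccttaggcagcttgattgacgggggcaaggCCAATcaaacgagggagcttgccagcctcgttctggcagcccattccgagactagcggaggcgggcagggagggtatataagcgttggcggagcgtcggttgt
TUBB6: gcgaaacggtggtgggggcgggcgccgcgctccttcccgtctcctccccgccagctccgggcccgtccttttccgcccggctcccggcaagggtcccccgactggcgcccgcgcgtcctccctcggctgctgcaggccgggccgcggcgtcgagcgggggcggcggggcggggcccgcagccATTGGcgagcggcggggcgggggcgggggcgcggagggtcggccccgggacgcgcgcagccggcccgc
TUBA1B: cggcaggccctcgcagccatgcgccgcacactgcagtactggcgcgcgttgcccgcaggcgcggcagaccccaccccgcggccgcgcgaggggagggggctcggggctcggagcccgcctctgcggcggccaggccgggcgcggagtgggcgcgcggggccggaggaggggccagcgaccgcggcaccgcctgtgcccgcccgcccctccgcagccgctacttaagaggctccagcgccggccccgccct
TUBA1A: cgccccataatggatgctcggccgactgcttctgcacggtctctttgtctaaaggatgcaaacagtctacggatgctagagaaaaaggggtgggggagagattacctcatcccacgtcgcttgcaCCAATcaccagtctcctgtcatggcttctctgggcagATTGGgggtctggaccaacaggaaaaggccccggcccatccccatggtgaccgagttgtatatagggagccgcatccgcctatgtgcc
They lie at chr9:137241037-137241286 (plus strand), chr18:12307991-12308240 (plus), chr12:49131396-49131645 (minus) and chr12:49189081-49189330 (minus). TUBB4B held 3 CCAAT boxes, which begin at 232, 166 and 103 bases before the start, and TTTGAA at 242 bases. TUBB6 held 1 CCAAT box, TUBA1B none and TUBA1A 2. CCAAT was found in 2 of the 3 genes that fell and in 5 of the 7 not called, and in 32% of the 34943 windows of this length. TTTGAA or TTCGAA was found in 1 of the 3 and 2 of the 7, and in 14.4% of all windows. The motif GGGCGG on either strand was found in 2 of the 3 and 6 of the 7, and in 42.5% of all windows. Matches are descriptions of letters only.

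All 9 alpha-tubulin and beta-tubulin genes of the set have codons for the residues that the autoregulation recognizes. TTC5, which recognizes those residues in the nascent chain, had 13.5 ± 1.81 CPM in shNC and 15.7 ± 0.6 in shBry. The log2 fold change of TTC5 was 0.21 (95% interval -0.07 to 0.50, edgeR adjusted p = 0.19).

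Of 12 other tubulin genes, 3 were at 0 counts in all libraries and 6 could be tested, of which 2 rose and 2 fell (66.7% called, against 32.4% of all genes). TUBE1, which encodes the epsilon-tubulin of centrioles, rose from 12.8 ± 1.16 CPM in shNC to 52.4 ± 2.82 in shBry (log2 fold change 2.03, SE 0.11, edgeR adjusted p = 3.2e-09). Its values were 12.2, 12.1 and 14.2 CPM in shNC and 50.3, 51.3 and 55.6 CPM in shBry. No value of one group came near the other. TUBAL3, an alpha-tubulin-like gene, rose from 0.886 ± 0.304 to 1.99 ± 0.123 CPM (log2 fold change 1.16, edgeR adjusted p = 0.0055). TUBB4A, the isotype of myelinating glia and neurons, fell from 6.68 ± 0.75 to 1.65 ± 0.503 CPM (log2 fold change -1.9997, edgeR adjusted p = 5.5e-06). TUBA8 had a log2 fold change of -1.24 (edgeR adjusted p = 0.02), with between 6 and 30 counts per library, and lost its call in 3 of 6 fits without single libraries. TUBG2, the second gamma-tubulin gene, had a log2 fold change of 0.30 (edgeR adjusted p = 0.02), under the fold change limit. That of TUBG1 was -0.29, and 18.2% of the 50-base stretches of TUBG1 are also found in TUBG2. Whether reads were exchanged between these 2 genes was not tested.

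Folding genes prepare the subunits: prefoldin and the CCT chaperonin fold them, and the cofactors TBCA to TBCE assemble the dimer. Of 24 tested genes, 4 rose, 2 fell and 18 were not called (25%, against 32.4% of all genes), with a median log2 fold change of 0.11. TBCD, the cofactor that holds beta-tubulin, fell from 89.5 ± 3.73 to 39.2 ± 2.77 CPM (log2 fold change -1.19, edgeR adjusted p = 9e-08). Of the prefoldin subunit genes, PFDN2 and PFDN5 were called, in opposite directions. PFDN2 rose from 66.3 ± 2.83 to 210.2 ± 25.2 CPM (log2 fold change 1.66, edgeR adjusted p = 6.4e-09), and PFDN5 fell from 179 ± 5.83 to 96.5 ± 12.3 CPM (log2 fold change -0.89, edgeR adjusted p = 2.7e-06). CCT6B, a chaperonin subunit known from testis, had 2 counts in each shNC library and 20, 30 and 32 in shBry, a ratio of 13.3 with a counting interval of 5.84 to 37.2 (95%, exact binomial, counting error only). TXNDC9, a cofactor of the chaperonin, was called higher (log2 fold change 0.68, edgeR adjusted p = 0.031), but its groups overlapped and the call was lost without shBry replicate 2 or shNC replicate 1, under DESeq2 and under library totals without TMM.

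Nucleation genes encode the gamma-tubulin ring complex, its anchors and the augmin complex, which recruits it to spindle microtubules. All 21 were tested, and 2 rose and 5 fell (33.3% called, against 32.4% of all genes), with a median log2 fold change of -0.32. TUBGCP6, a ring complex subunit, fell from 145 ± 15.3 to 80 ± 5.35 CPM (log2 fold change -0.86, edgeR adjusted p = 3.7e-06). The augmin genes HAUS8 and HAUS5 fell, with log2 fold changes of -0.97 and -0.76 (edgeR adjusted p = 3.9e-06 and 1.8e-05). MZT1, a small protein that activates the ring complex, rose from 8.82 ± 0.733 to 14.8 ± 3.5 CPM (log2 fold change 0.76, edgeR adjusted p = 0.0018), and without shBry replicate 2 it was at 0.55, under the fold limit. NEDD1, which anchors the complex, was called higher although its groups overlapped, with a log2 fold change of 0.60 (edgeR adjusted p = 0.014), near the limit, and lost the call in 4 of 6 fits without single libraries, under DESeq2 and with no filter on low counts. No gene of this list passed a fold limit of 2.

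Modification genes encode the enzymes that act on the tubulin tails and on alpha-tubulin lysines. Of 20 tested genes, 2 rose and 7 fell (45% called, against 32.4% of all genes), with a median log2 fold change of -0.17. VASH1, a vasohibin that removes the final tyrosine of alpha-tubulin, fell from 32.5 ± 0.166 to 10.9 ± 0.558 CPM (log2 fold change -1.57, edgeR adjusted p = 5.6e-08), and the antisense gene VASH1-AS1 overlaps 24.2% of its exon bases. TTLL5, a glutamylase, fell from 52.3 ± 5.46 to 22.7 ± 1.26 CPM (log2 fold change -1.20, edgeR adjusted p = 5.1e-07). AGBL5, a carboxypeptidase that trims glutamates, fell with a log2 fold change of -0.71 (edgeR adjusted p = 1.9e-05). TTLL1, another glutamylase, rose from 12.2 ± 1.56 to 20.2 ± 1.36 CPM (log2 fold change 0.73, edgeR adjusted p = 0.00033). TTLL6 was called higher on 2 to 19 counts per library and lost the call in 5 of 6 fits without single libraries, under DESeq2 and with no filter on low counts.

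Dynamics genes encode proteins that bind, sequester, cap or sever microtubules. Of 41 tested genes, 3 rose and 9 fell (29.3% called, against 32.4% of all genes), with a median log2 fold change of -0.06. STMN1, the stathmin that sequesters tubulin dimers, fell from 550.1 ± 14.9 to 231.3 ± 17 CPM (log2 fold change -1.25, edgeR adjusted p = 1.8e-08). Its relative STMN3 fell from 85.8 ± 8.5 to 37.3 ± 5.16 CPM (log2 fold change -1.20, edgeR adjusted p = 7.2e-07). TACC3, a spindle protein, fell from 305 ± 11.4 to 151 ± 11.6 CPM (log2 fold change -1.01, edgeR adjusted p = 1.8e-07). MAP1B, a microtubule-binding protein of growing neurites, rose from 142 ± 16.4 to 298 ± 59.4 CPM (log2 fold change 1.07, edgeR adjusted p = 7.2e-06). The plus-end protein gene CLIP1 and MAP7 were called higher with log2 fold changes of 0.60 and 0.62 (edgeR adjusted p = 4e-04 and 0.029), both near the fold limit, and lost their calls in 3 and 4 of 6 fits without single libraries, under DESeq2 and with no filter on low counts.

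**Figure D5:**
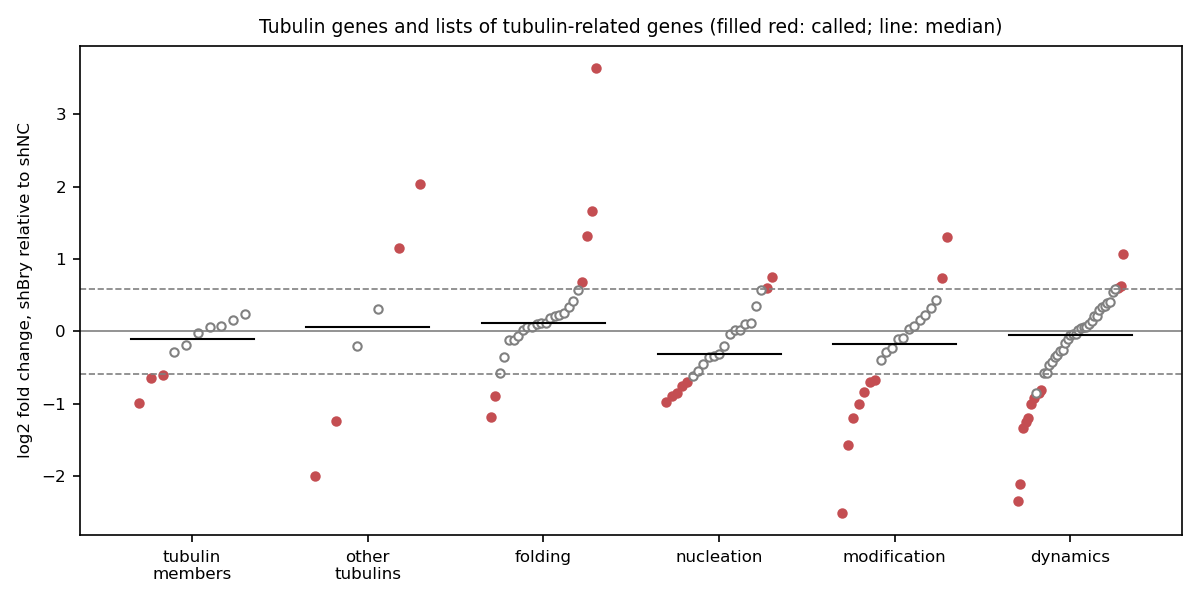
Log2 fold change (shBry relative to shNC) of the 10 tubulin genes and of every tested gene in 5 lists of tubulin-related genes, ordered by value within each list, filled red where called, with the median as a line. Called genes lie on both sides in all 5 lists. Among the other tubulins 2 were called higher, TUBE1 and TUBAL3, and 2 lower. Of the 10 tubulin genes only TUBB4B, TUBB6 and TUBA1B were called, and these lie below 0.

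Among 9404 further genes averaging 10 CPM or more, the patterns most like that of TUBB4B over the 6 libraries were those of DCAF11, METTL3 and DDX54, with a Pearson r of 0.9999, 0.9998 and 0.9996 on log2 CPM. Such likeness is common with 2 groups, as 376 of these genes had an r above 0.99.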

How the data were processed

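RNA of MDA-MB-231 shBry and shNC cells was sequenced on Illumina HiSeq 4000 in 3 libraries each. The authors deposited raw counts per gene symbol, with no normalization. The submitters' processing notes name HISAT2 2.0.4, HTSeq and GRCh38. Annotation, strand setting and the handling of reads that map to several places were not given in the sources used here. Samples were grouped by their labels.

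Counts were filtered with filterByExpr (minimum count 10), scaled with TMM and tested in R 4.3.3 with edgeR 4.0.16 (glmQLFTest, Benjamini-Hochberg adjustment). Calls needed an adjusted p below 0.05 plus a fold above 1.5. The standard error (SE) is the log2 fold change divided by the square root of F. Sums and shares were tested by exact permutation. A count of 0 allows 3 counts, up to 0.155 CPM in the smallest library, for counting error only. The tests were tried on simulated data.

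The members and lists were chosen with earlier results of these data known. Besides the members, the text names per list the 3 called genes of smallest adjusted p on each side, TTC5, and the 3 genes most like the member with the smallest adjusted p (Pearson r of log2 of CPM plus 0.5). TUBG2, TUBB, TUBBP1 and TUBBP2 were named after their values were seen. Positions, lengths and shared stretches came from GENCODE 29, matched by symbol. Alternatives were library totals, DESeq2 1.42.0, voom of limma 3.58.1, other filters, p and fold limits, the replicate block and each library left out. Alternatives for single genes of the lists and for TUBBP1 and TUBBP2 were added after seeing the data. Protein sequences were not used here, and the coding ends of some members are not reported here.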

Additional observations from a re-analysis of the deposited data

How the results depend on the processing

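The number of tubulin genes called was 3 under library totals without TMM, DESeq2, limma-voom, both other filters and unadjusted p, 4 without a fold change limit and 0 with a limit of 2, as TUBB4B then missed by little. With each library left out it was between 2 and 3. Over all genes 4945 were called, against 2297 with a fold limit of 2 and 8139 with none. With a limit of 2, 0 nucleation, 5 modification and 7 dynamics genes were called. Per kilobase, the share of TUBB3 differed by 6.25 percentage points and that of TUBA1A by 2.19, against 6.63 and 1.83 from counts. The sign of TUBA1C turned to -0.031 and that of TUBA4A to -0.014 on the log2 scale in single fits with a library left out, over which they ranged from -0.031 to 0.134 and from -0.014 to 0.0916. TMM and library totals moved the median of all genes by less than 0.1. With the replicate number as a block, 4914 genes and 3 tubulin genes were called. Same-numbered libraries had correlations of deviations of 0.25, -0.13 and -0.05, so the numbers were not taken as pairs, and not every library correlated best with its own number. Precision rests on 3 libraries per group, and counts of TUBB2B, at most 180 per library, are the thinnest of the members.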

Other observations

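TUBB itself was listed at 0 counts in all 6 libraries, while rows of processed pseudogenes of TUBB were not. TUBBP1 had 6754, 6040 and 5667 counts in shNC and 4187, 4762 and 4248 in shBry. Its log2 fold change was -0.52 (SE 0.09, edgeR adjusted p = 0.00016), under the fold limit of 1.5. TUBBP2 had 2255, 2337 and 2229 counts in shNC and 1391, 1605 and 1685 in shBry, with a log2 fold change of -0.58 (SE 0.08, edgeR adjusted p = 4.2e-05), at the fold limit, so that the call changed in 9 of 13 alternatives. The transcripts of TUBBP1 share 26.4% of their stretches of 50 bases with TUBB, and those of TUBBP2 share 14.6%. From which locus these reads came was not tested, and the sum of beta-tubulin counts given above holds neither row.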
